A study of Mus musculus with 2 samples.

Results

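Cycling myeloid and dendritic cells were examined among CD45+ immune cells sorted from B16F10 tumours, a transplantable mouse melanoma. The cells were chosen by their own counts. Barcodes with fewer than 200 genes were dropped, as were those with more than 15% of their UMIs (unique molecular identifiers, 1 per captured RNA molecule) from mitochondrial genes. A kept cell was a member when Mki67, Top2a and Birc5 together had at least 3 UMIs, and when H2-Aa, H2-Ab1, Cd74, Csf1r and Lyz2 together had at least 20. It also had to have 0 UMIs of the lymphoid genes Cd3d, Cd3e, Cd3g, Trac, Cd79a, Ms4a1 and Ncr1, at most 4 of the melanoma genes Pmel, Mlana, Dct and Tyrp1, and at most 1 of the plasmacytoid gene Siglech. This rule found 241 of 14624 kept cells, 71 of 8936 in the WT library and 170 of 5688 in the KO library. The WT library came from Kcnj2f/f mice and the KO library from Lyz2-Cre-Kcnj2f/f mice, so both carried the floxed Kcnj2 alleles and only the KO mice carried Cre. Tumours were taken at day 10 after subcutaneous injection, and tumours of 3 mice were pooled into each of the 2 libraries. Lyz2 drives Cre in monocytes, macrophages and neutrophils and reaches only a part of dendritic cells, which limits the KO as a model for the dendritic members. With 1 library per genotype there was no replicate, so no test between genotypes was possible, and every interval below is an exact 95% interval that covers counting error only.

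Dendritic cells take up antigen and present it to T cells on MHC class II molecules. Conventional type 1 cells (cDC1) present exogenous antigen to CD8 T cells, and conventional type 2 cells (cDC2) mainly to CD4 T cells. Both are short-lived and are renewed from circulating precursors that still divide after they enter a tissue, with Flt3 as the main growth factor receptor. Tumour macrophages derive largely from blood monocytes, which rarely divide once they mature, and some macrophages proliferate locally under Csf1r signalling. Mki67 encodes the proliferation antigen Ki-67, Top2a the DNA topoisomerase that untangles replicated chromosomes, and Birc5 survivin, a subunit of the chromosomal passenger complex in mitosis.

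The promoters of the 3 genes that chose the cells are shown because G2 and M phase genes share short promoter elements. The letters are the 250 bases before the RefSeq start of each gene, 5′ to 3′ on the gene's own strand in GRCm38.p6, and capitals mark the cell cycle homology element TTTGAA, the CCAAT box and the E2F sites TTTCCCGC and TTTGGCGC on either strand. Mki67 lay at chr7:135716380-135716629 (minus strand), Top2a at chr11:99024190-99024439 (minus strand) and Birc5 at chr11:117848987-117849236 (plus strand). Mcm5 (chr8:75109259-75109508, plus strand) and Mcm6 (chr1:128359706-128359955, minus strand), which encode subunits of the replicative helicase, are added because they were among the genes highest in the members and hold an E2F site.
Mki67: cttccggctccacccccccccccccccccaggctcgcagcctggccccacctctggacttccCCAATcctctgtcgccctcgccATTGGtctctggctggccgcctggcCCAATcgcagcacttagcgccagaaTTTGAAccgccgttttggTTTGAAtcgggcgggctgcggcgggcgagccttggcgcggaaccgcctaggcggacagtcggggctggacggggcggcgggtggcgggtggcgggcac
Top2a: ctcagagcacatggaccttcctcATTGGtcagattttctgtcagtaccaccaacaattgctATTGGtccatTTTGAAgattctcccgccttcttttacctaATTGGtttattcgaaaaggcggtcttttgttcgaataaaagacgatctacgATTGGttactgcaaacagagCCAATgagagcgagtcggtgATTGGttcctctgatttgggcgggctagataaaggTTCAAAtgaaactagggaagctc
Birc5: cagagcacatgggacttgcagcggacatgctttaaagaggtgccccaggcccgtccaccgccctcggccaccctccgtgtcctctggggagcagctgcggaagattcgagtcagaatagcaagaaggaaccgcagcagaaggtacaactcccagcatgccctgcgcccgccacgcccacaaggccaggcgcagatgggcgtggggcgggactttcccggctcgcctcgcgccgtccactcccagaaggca
Mcm5: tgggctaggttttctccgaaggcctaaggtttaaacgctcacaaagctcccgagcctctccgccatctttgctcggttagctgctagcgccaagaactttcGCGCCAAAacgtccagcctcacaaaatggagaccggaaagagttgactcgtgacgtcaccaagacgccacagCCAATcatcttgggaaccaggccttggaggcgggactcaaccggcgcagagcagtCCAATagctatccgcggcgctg
Mcm6: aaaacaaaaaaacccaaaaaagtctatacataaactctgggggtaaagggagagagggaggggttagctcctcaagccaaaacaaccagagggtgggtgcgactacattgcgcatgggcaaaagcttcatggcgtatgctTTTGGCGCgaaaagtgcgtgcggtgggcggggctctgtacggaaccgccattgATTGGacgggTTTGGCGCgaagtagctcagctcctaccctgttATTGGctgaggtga

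TTTGAA was found in 35.1% of 37 promoters of the G2 and M phase list, in 12.5% of 32 promoters of the S phase list and in 5252 of all 32851 promoters of this length, near the S phase share. A CCAAT box was in 81.1%, 59.4% and 33.8% of them, and either E2F site in 0%, 25.0% and 1.30%. The Birc5 window held none of these letters. The matches are descriptions of the windows and not evidence of binding.

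The deposited matrices held 55219440 UMIs over 9677 WT barcodes and 57047535 UMIs over 6356 KO barcodes, and kept cells had a median of 4398.5 and 8026 UMIs. Members were deep cells, with a median of 14426 UMIs in WT (range 1534 to 38260) and 18416 in KO (1349 to 41879). Of the kept barcode sequences, 61 occurred in both libraries, and 1 member had a barcode that was also kept in the other library. The doublet caller Scrublet marked 0 of 8936 WT and 2 of 5688 KO cells by its own threshold, so it did not work as a filter. The top 6% of scores among all kept cells of each library held 2 of 71 WT and 15 of 170 KO members. Of cells that met the other conditions of the rule but had 0 cycling UMIs, it held 10 of 1103 in WT and 69 of 2099 in KO. The share was larger in members in both libraries.

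The rule left out most of the cells with at least 3 UMIs of the cycling genes. There were 603 such kept cells in WT and 379 in KO. A myeloid sum under 20 removed 361 and 128 of them, and any lymphoid UMI removed a further 169 and 72, of which 27 and 34 had exactly 1 such UMI. Melanoma genes removed 2 and 7, and Siglech removed 0 and 2. Members with exactly 3 cycling UMIs numbered 18 in WT and 45 in KO, and gated cells with exactly 2, just outside the rule, numbered 39 and 98. Gated cells are those that met every condition other than the one on cycling genes, 1348 in WT and 2629 in KO. Those without a single UMI of Mki67, Top2a and Birc5, 1103 in WT and 2099 in KO, are called noncycling gated cells and are set beside the members.

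Members were 0.795% (interval 0.621 to 1.001) of kept cells in WT and 2.99% (2.56 to 3.46) in KO. Gated cells were 15.1% of kept cells in WT and 46.2% in KO, so most of this gap lay in the size of the gated population. The gate is itself a cut on UMI counts, and kept cells had a median of 4398.5 UMIs in WT and 8026 in KO. The gated share at equal depth was not tested. Within gated cells, members were 5.27% (4.14 to 6.60) in WT and 6.47% (5.56 to 7.47) in KO. After every gated cell with at least 3000 UMIs was thinned to 3000, the share with 1 or more cycling UMIs was 9.87% (108 of 1094 cells) in WT and 9.72% (232 of 2388) in KO. The shares within gated cells were therefore close to each other at equal depth, and their intervals overlapped. A share of cells in 1 library of pooled mice cannot separate the genotype from the tumours, the sort or the capture.

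Genes that the rule did not use were then read to see how far the members were cycling. The S phase list has 34 genes of DNA replication and the G2 and M phase list has 41 genes of mitosis, none of them among the rule genes. The S phase list had a median of 1824 CPM (UMIs scaled to the cell's total) in WT members, with a lowest value of 0 and a highest of 6676. In KO members the median was 491 CPM, with a range from 0 to 8303. The G2 and M list had a median of 1988 CPM in WT members (0 to 29393) and 1002 CPM in KO members (0 to 12862). In noncycling gated cells the S phase median was 202 CPM in WT against 216 in KO, and the G2 and M median 421 and 383 CPM.

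Many KO members lay within the range of noncycling cells on both lists. The 95th percentile of the summed lists in noncycling gated cells was 1872 CPM in WT against 1717 in KO. It was passed by 56 of 71 WT members (78.9%, interval 67.6 to 87.7) and by 93 of 170 KO members (54.7%, 46.9 to 62.3), leaving 15 and 77 members at or under it. Of members with exactly 3 cycling UMIs, 12 of 18 passed it in WT and 11 of 45 in KO. For gated cells with exactly 2 UMIs the counts were 10 of 39 and 13 of 98. By genes outside the rule, the name cycling thus held for most WT members and for a smaller share of KO members. Counted by both criteria, high members were 4.15% (3.15 to 5.36) of gated cells in WT and 3.54% (2.86 to 4.32) in KO, the opposite order to that of all members, with overlapping intervals.

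**Figure D1:**
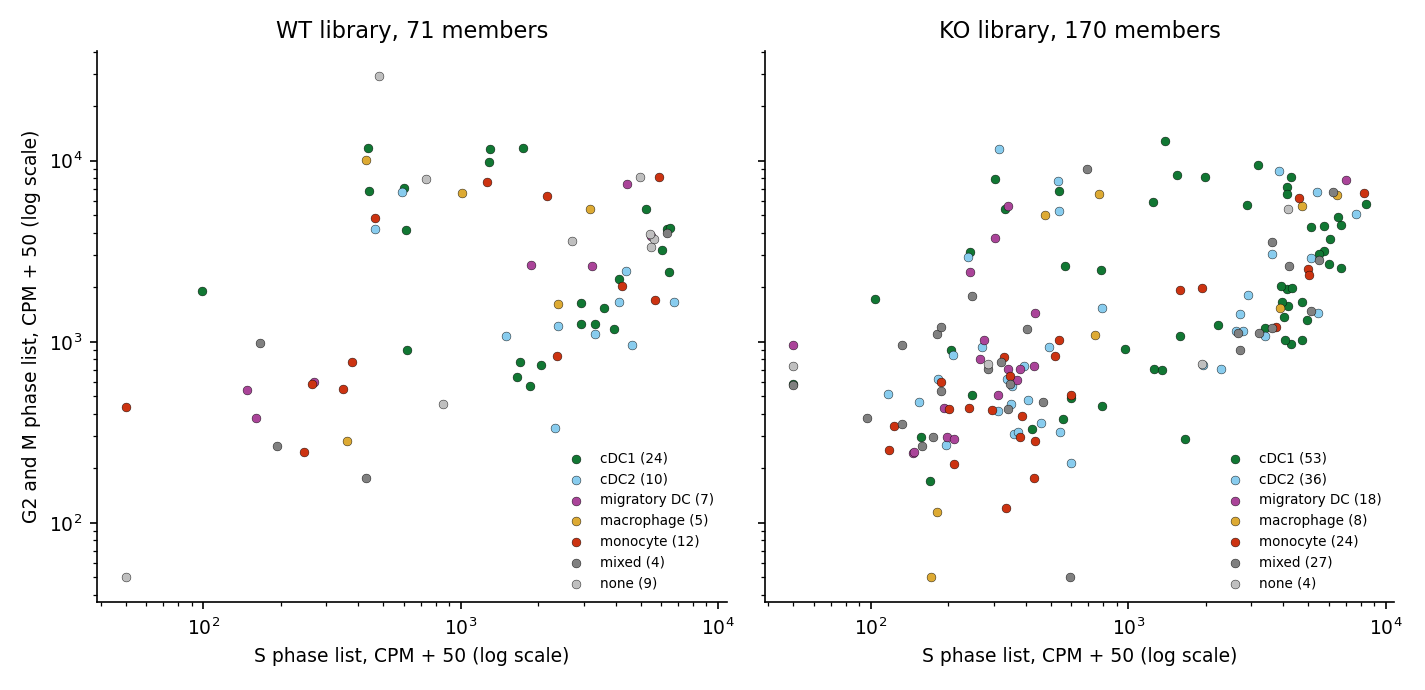
Each point is 1 member, with the summed S phase list on the x axis and the summed G2 and M phase list on the y axis, both in CPM plus 50 on log scales, coloured by lineage with cell numbers in brackets. KO cells form a dense group at low values of both lists beside a group with high S phase values, and their S phase median is 491 CPM against 1824 CPM in WT.

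The balance of the lists was read as a count and not as a phase call, since many members had low values and noncycling cells also held more G2 and M than S phase CPM. After thinning to 3000 UMIs, more S phase than G2 and M UMIs were found in 29 of 63 WT members (46.0%, 33.4 to 59.1) and 66 of 165 KO members (interval 32.46 to 47.9). Cycling cells of the same libraries with at least 3 UMIs of Cd3d, Cd3e, Cd3g and Trac gave 29.6% (24.9 to 34.6) in WT and 38.1% (29.3 to 47.5) in KO. Among members with cDC1 markers it was 12 of 24 cells in WT and 26 of 52 in KO.

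Lineage was read from 5 lists of 5 markers. A cell was given the list with the most markers detected, provided at least 2 were found and no other list had as many. Dendritic lists took most members. In WT, 24 of 71 members (33.8%) were cDC1-like, 10 (14.1%) cDC2-like and 7 (9.86%) like migratory dendritic cells. In KO the counts were 53 of 170 (31.2%), 36 (21.2%) and 18 (10.6%). Together the 3 dendritic lists held 57.7% (45.4 to 69.4) of WT and 62.9% (55.2 to 70.2) of KO members, against 28.8% and 36.1% of noncycling gated cells. The migratory list alone had a slightly smaller share in members, with 140 of 1103 noncycling gated cells in WT and 329 of 2099 in KO. The intervals of the member shares (4.06 to 19.3 in WT and 6.40 to 16.2 in KO) held these noncycling shares. Its summed markers stood at 488 CPM in WT members against 865 in noncycling cells and at 670 against 1279 CPM in KO. The macrophage list took 5 WT and 8 KO members, and the monocyte list 12 and 24. A tie between lists left 4 WT and 27 KO members mixed, and 9 and 4 had no list with 2 markers. Of the KO members, 32 had at least 3 markers on each of 2 lists, as had 3 WT members, 110 of 1103 noncycling gated cells in WT and 251 of 2099 in KO. Doublets among members with markers of several lists were not tested.

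How clearly a list led differed between lineages. Cells at exactly 2 markers, or only 1 marker ahead of the next list, were 1 of 24 WT and 7 of 53 KO cDC1-like members. Among cDC2-like members they were 9 of 10 and 19 of 36, and among monocyte-like members 7 of 12 and 12 of 24. Shares and ratios of the last 2 groups therefore rest on many cells near the limit. At least 3 of the 5 cDC1 markers were found in 23 of 24 WT and 52 of 53 KO cDC1-like members. Xcr1, the receptor for the chemokine XCL1 of T and NK cells, had UMIs in 32.4% of all WT members and 30.0% of all KO members, against 5.35% and 7.29% of noncycling gated cells. Clec9a, a receptor for dead-cell debris, was in 36.6% and 38.2% of members against 8.70% and 13.2%. Tlr3, a sensor of double-stranded RNA, was in 33.8% and 38.8% against 5.80% and 9.10%. Within the cDC1-like members, Xcr1 stood at 550 CPM in WT against 397 in KO, and Irf8, a transcription factor that cDC1 require, at 1798 and 1788 CPM. Csf1r stood at 3.69 and 2.69 CPM in the same cells, and C1qb, a complement gene of macrophages, at 0 in WT and 34.1 CPM in KO.

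The cDC2 list, like the migratory list, had a lower summed level in members than in noncycling gated cells, at 338 against 655 CPM in WT and 743 against 854 CPM in KO, although Mgl2 and Irf4 were higher in KO members (log2 ratios 0.40 and 0.35). These genes assigned the cells, so their levels within a lineage are a description. Cd209a, a lectin of cDC2 and monocyte-derived cells, was found in 16.9% of all WT and 38.8% of all KO members, and stood at 677 and 959 CPM in the cDC2-like members. Over all members its log2 ratio to noncycling gated cells was -1.06 (-1.30 to -0.83) in WT and -0.46 (-0.56 to -0.37) in KO. Clec10a, a lectin of the same cells, was in 29.6% and 41.8% of members, with ratios of -0.60 and -0.32. Clec4a4, which marks a splenic cDC2 subset, was in 0 of 71 and 2 of 170. Ccr7, the receptor that leads mature dendritic cells to lymph nodes, was in 16.9% and 32.4% of members, and reached 4220 CPM in the 7 WT and 2851 CPM in the 18 KO migratory-like members. Its ratios over all members were -0.36 and -0.72, and those of Fscn1, an actin-bundling gene of mature dendritic cells, -1.83 and -1.74.

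Several genes of macrophages and monocytes, though not the complement gene C1qa, were found in a smaller share of members than of noncycling gated cells. Csf1r was in 25.4% of WT and 36.5% of KO members against 46.9% and 51.0% of noncycling gated cells. C1qa was in 9.86% of WT and 9.41% of KO members, with intervals that held the noncycling values. By summed level the complement genes were lower in WT members, with log2 ratios of -1.34 for C1qa, -1.46 for C1qb and -0.87 for C1qc. In KO these ratios were -0.05, -0.16 and -0.20. The 5 WT and 8 KO macrophage-like members held C1qb at 2658 and 2607 CPM. Vcan, a proteoglycan gene of classical monocytes, was in 7.04% and 15.3% of members against 24.4% and 29.7%. Plac8 was in 69.0% and 72.4% of members and in 65.4% and 73.2% of noncycling gated cells, and also in 78.4% and 71.5% of the cycling cells with T cell markers. Without Plac8 and Ms4a4c, a choice made after their values were seen, the monocyte list took only 4.23% of WT and 2.94% of KO members, in place of 16.9% and 14.1%. A list of 3 genes with the same minimum of 2 takes fewer cells by construction. At least 3 of the 5 monocyte markers were found in 8 of 12 WT and 21 of 24 KO monocyte-like members, and assignment by summed UMIs raised the KO share to 26.5%. The monocyte-like share thus depends on how the list is read.

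Several genes shared by dendritic cells and their precursors were common among members. Flt3 was in 53.5% of WT and 56.5% of KO members against 23.5% and 30.9% of noncycling gated cells. Zbtb46, a transcription factor of the conventional dendritic lineage, was in 38.0% and 37.1% against 14.4% and 21.0%. Kit, the stem cell factor receptor, was in 36.6% and 51.8% against 16.1% and 21.6%. Itgax and Bcl11a, also on this list, differed less, with log2 ratios of -0.09 and 0.04 in WT and 0.22 and 0.38 in KO. Within cDC1-like cells the log2 ratios were -0.18 in WT and -0.13 in KO for Flt3, and -0.12 and -0.08 for Kit. In KO cDC2-like cells they were 0.21 and 0.02, and the intervals within both dendritic lineages held 0. In KO monocyte-like cells Flt3 was at 1.43 (0.55 to 2.21) and Kit at 0.69 (-0.41 to 1.61). Of the granulocyte and monocyte progenitor genes, Mpo, Elane, Ctsg and Ms4a3 had 0 UMIs in the members of both libraries. Ms4a3 was also at 0 in KO noncycling gated cells. The whole progenitor list was low in noncycling gated cells too, at 14.1 CPM in WT and 13.3 in KO, against 6.76 and 4.79 CPM in members. For this list, 3 cells would be 4.23% of WT and 1.76% of KO members, which is a floor and not an upper limit. The other 2 genes of this list (Cd34 and Prtn3) had 7 UMIs in WT and 15 in KO. The neutrophil list (6 genes) had 11 UMIs in 15.5% of WT members and 29 in 11.2% of KO members, with Ly6g and Retnlg at 0, as they were in WT noncycling gated cells. Of the other cell types, the T cell list (8 genes) had UMIs in 22.5% of WT and 10.6% of KO members and in 22.1% and 8.20% of noncycling gated cells. It summed to 18.3 and 6.39 CPM in members against 3671 and 2150 CPM in all other kept cells, where 4 of its genes were barred in members by the rule. The melanoma list (7 genes) summed to 13.5 and 29.7 CPM in members. Free RNA can give a UMI to a cell that does not express a gene, so the cycling cells with T cell markers, of median depth 8769 UMIs in WT and 14574 in KO, give a level for comparison. They held Xcr1 in 2.28% and 0.813% of cells, Clec9a in 3.81% and 3.25%, Flt3 in 8.63% and 8.94%, Kit in 7.87% and 12.2%, Csf1r in 8.88% and 8.13%, and Cd209a in 9.64% and 14.6%. All of these were lower than in members, which were deeper. No upper limit on myeloid or melanoma genes was set for the cycling cells with T cell markers. Their myeloid sum had a median of 4 UMIs in WT and 7 in KO, with highest values of 1450 and 1139. Their shares may thus hold doublets as well as free RNA, which was not tested.

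**Figure D2:**
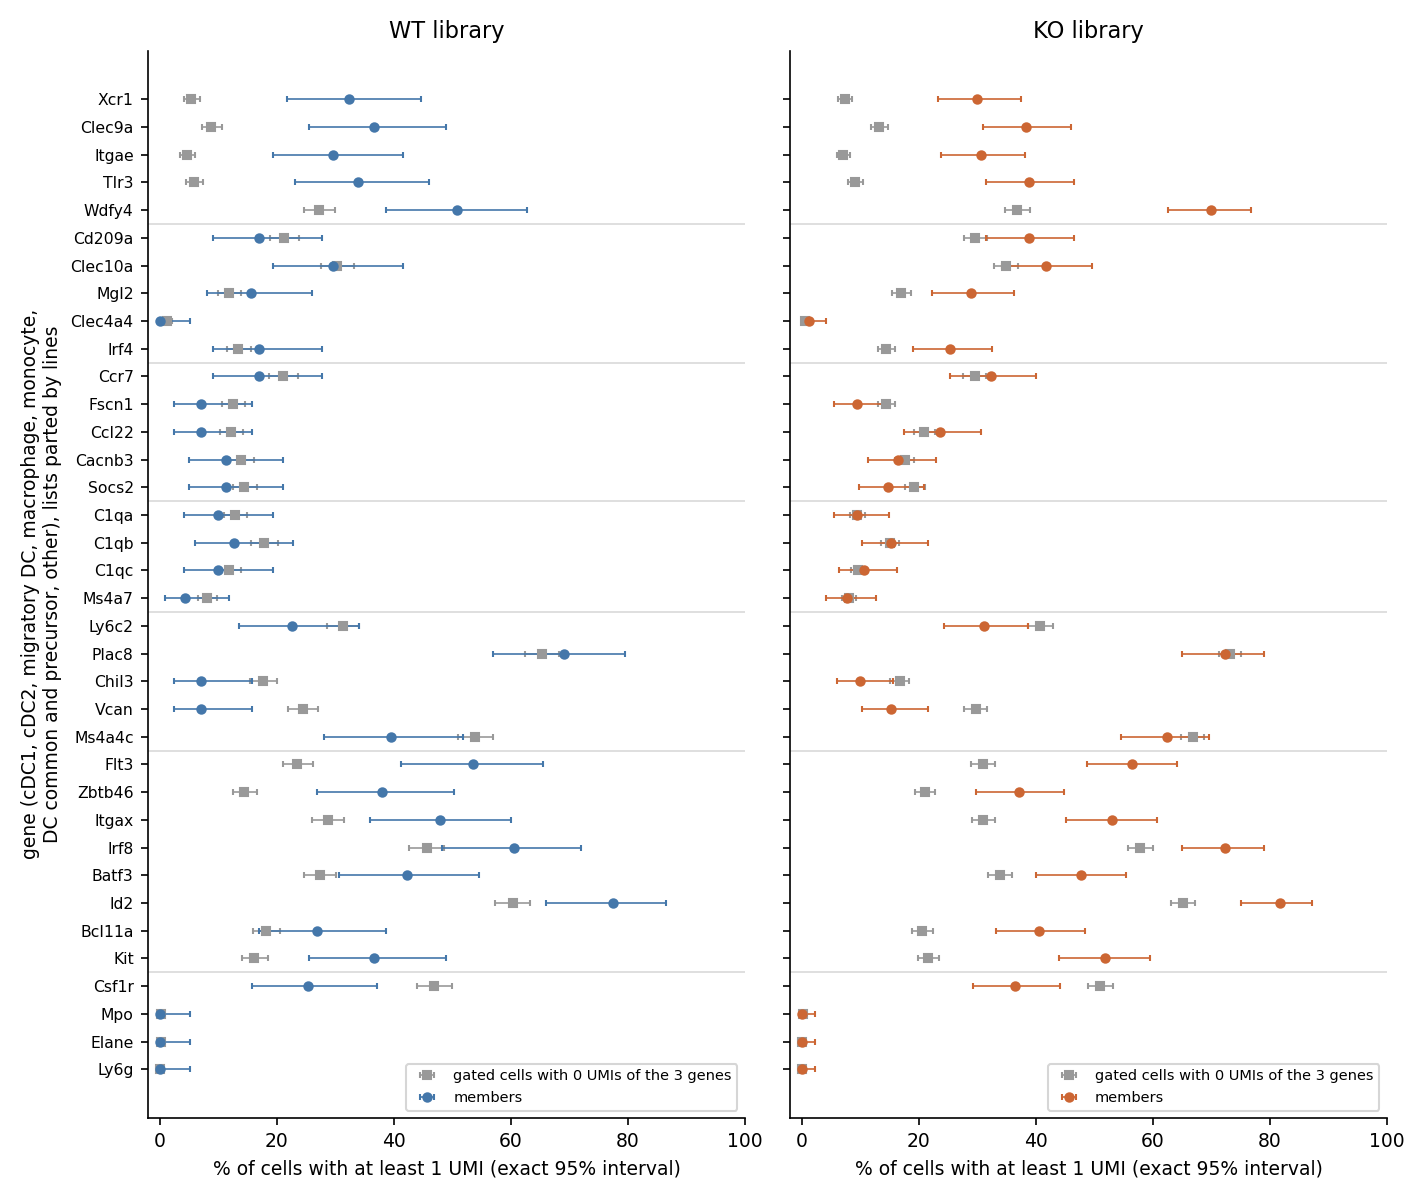
Share of cells with at least 1 UMI of each marker (x axis, %) for the WT library on the left and the KO library on the right, with coloured circles for members, grey squares for gated cells without a UMI of the 3 genes and bars for exact 95% intervals. Circles lie to the right of squares for all 5 cDC1 markers, Flt3, Zbtb46 and Kit in both libraries, and to the left for Csf1r and Vcan.

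Depth bears on these shares, since a deeper cell shows more markers. Among cells with 8000 to 20000 UMIs, cDC1-like cells were 4 of 27 members (14.8%, 4.19 to 33.7) and 5.46% of 549 noncycling gated cells in WT. In KO they were 14 of 74 members (18.9%, 10.7 to 29.7) and 5.33% of 1332 noncycling gated cells. The order was kept in both libraries at a smaller difference, and the WT intervals overlapped. The monocyte-like share in this window was 37.0% of WT members and 37.2% of noncycling cells, and in KO it was 21.6% of members and 533 of 1332 noncycling cells. The migratory-like share was 18.5% of members and 14.6% of noncycling cells in WT, and 12.2% and 16.7% in KO, so its order was kept only in KO.

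The cycling share was highest among cDC1-like cells. Of gated cDC1-like cells, 24 of 121 in WT (19.8%, 13.1 to 28.1) and 53 of 278 in KO (19.1%, 14.6 to 24.2) were members. For cDC2-like cells the share was 7.25% (3.53 to 12.9) in WT and 10.1% (7.16 to 13.7) in KO. For migratory-like cells it was 4.05% and 4.604%, for macrophage-like cells 3.88% and 5.16%, and for monocyte-like cells 2.80% and 2.65%. After thinning to 3000 UMIs, cDC1-like cells still led the other named lineages, with 25.3% in WT and 19.4% in KO against 6.97% and 7.12% for monocyte-like cells. The cDC1 and monocyte intervals did not overlap in either library, whereas the cDC1 interval overlapped that of cDC2-like cells after thinning both in WT (17.1 to 35.0 and 7.11 to 19.6) and in KO (14.7 to 24.9 and 10.96 to 18.9).

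The lineages also differed in how many members carried high S and G2/M lists. For cDC1-like members it was 23 of 24 in WT and 44 of 53 in KO. For cDC2-like members it was 10 of 10 and 18 of 36. Macrophage-like members gave 4 of 5 and 6 of 8, migratory-like members 4 of 7 and 5 of 18, and monocyte-like members 7 of 12 and 7 of 24. Restricted to these cells, cDC1-like cells were 41.1% (28.1 to 55.0) of the 56 WT cells and 47.3% (36.9 to 57.9) of the 93 KO cells.

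**Figure D3:**
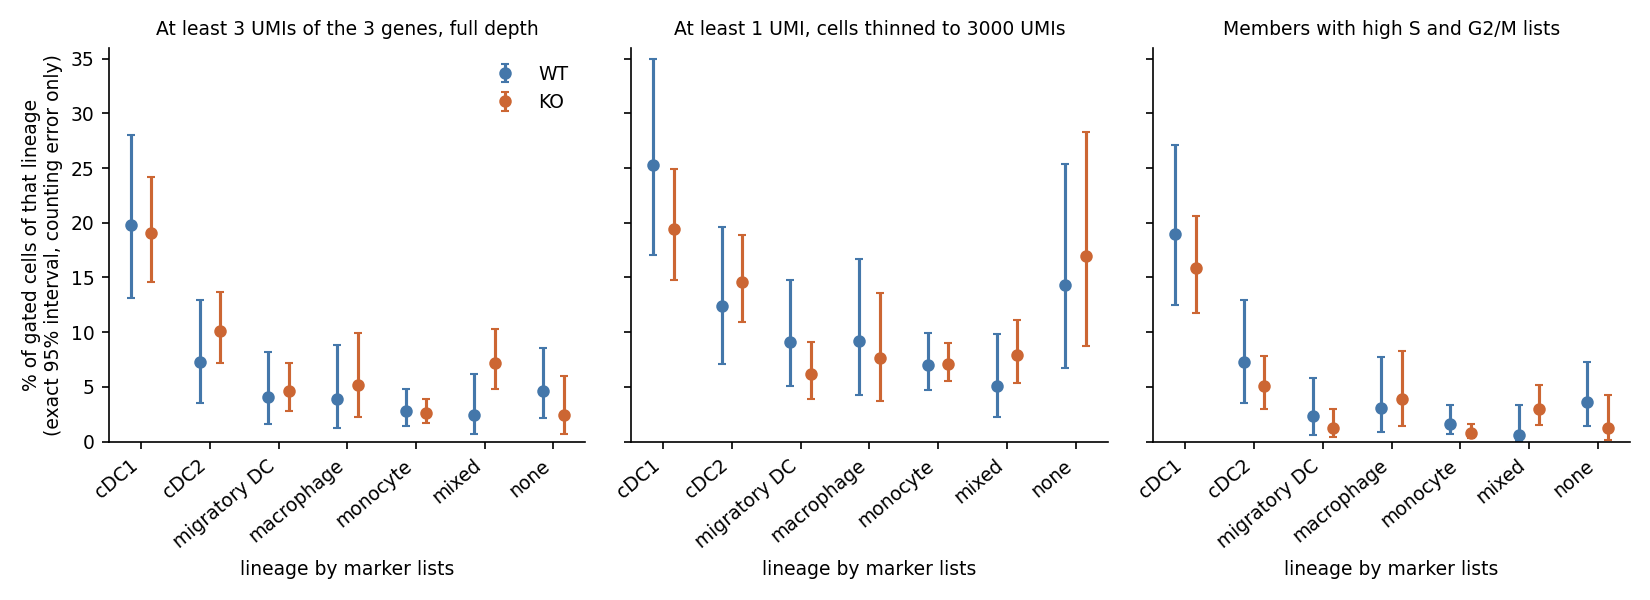
Share of gated cells of each lineage (y axis, %) that were members at full depth (left), that had a cycling UMI after thinning to 3000 UMIs (middle), and that were members with high S and G2/M lists (right), for WT and KO with exact 95% intervals. In the left panel cDC1-like cells stand at 19.8% in WT and 19.1% in KO, above every other lineage.

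Members were compared with noncycling gated cells over all genes within each library, as a description, since the rule itself separates the groups by cycling genes. Of 2713 genes with a mean of at least 50 CPM in WT, 5.79% were at least 2-fold higher in members and 8.11% at least 2-fold lower. Of 2768 genes in KO, the shares were 2.67% and 2.60%. Among cells with 8000 to 20000 UMIs the shares were 3.48% and 3.25% in WT and 0.733% and 0.770% in KO, so fewer genes passed 2-fold at like depth. Apart from the 3 rule genes, the highest in both libraries was Pclaf, a partner of the replication clamp PCNA, at 361 CPM in WT members and 2.50 in noncycling cells (log2 ratio 7.17, 6.55 to 7.87), and at 272 and 1.52 CPM in KO (7.48, 6.99 to 8.01). Stmn1, which destabilises microtubules, followed with log2 ratios of 6.19 in WT and 5.25 in KO. The 15 highest genes held 4 helicase subunits (Mcm3, Mcm5, Mcm6 and Mcm7), 3 histone genes (Hist1h2ae, Hist1h2ap and Hist1h1b), Dut and Rrm1 of nucleotide supply, and Gmnn, the inhibitor of replication licensing. All 12 S phase genes tested in WT and all 8 tested in KO were at least 2-fold higher in members. Of the G2 and M list, 8 of 9 and 3 of 6 were. The minimum of 50 CPM left most of its 41 genes out of this count, among them many that were near 0 in noncycling cells. Summed over the whole list, members stood at 3692 CPM against 496 in noncycling cells in WT, and at 2210 against 456 CPM in KO.

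Most of the 10 lowest genes are known from monocytes and macrophages. Lyz2, lysozyme and also the locus of Cre, stood at 731 CPM in WT members and 5249 in noncycling cells (log2 ratio -2.84, -2.95 to -2.74), and at 304 and 1604 CPM in KO (-2.40, -2.49 to -2.30). It is 1 of the 5 genes of the myeloid sum, so its level was part of the rule. Arg1, arginase of suppressive macrophages, had ratios of -2.58 and -1.90. Cebpb, a transcription factor of inflammatory myeloid cells, had -2.63 and -1.64, and Hp, haptoglobin, -4.08 and -2.23. The lineage make-up differs between the groups compared. Within cDC1-like cells, Lyz2 was still lower in members, by log2 ratios of -1.98 (-2.30 to -1.67) in WT and -1.40 (-1.89 to -0.94) in KO, and so was Ly6c2, a surface gene of monocytes, at -1.32 and -0.99. There Cebpb differed by -0.08 (-1.37 to 1.16) in WT and -0.61 (-1.37 to 0.10) in KO, whereas Pclaf kept log2 ratios of 6.09 and 7.56. There, 4.61% of genes were at least 2-fold higher and 2.56% lower in WT, and 3.46% and 0.338% in KO. In the KO library the other lineages with enough members could be read too. Among cDC2-like cells, 1.46% of genes were higher and 0.487% lower in members, with Pclaf at 163 CPM against 1.16 (7.13, 5.74 to 9.04) Cebpb at 84.0 against 79.6 CPM and Ly6c2 at a ratio of -2.21 (-3.55 to -1.13). Among monocyte-like cells, 3.24% were higher and 2.16% lower, with Pclaf at 234 CPM against 1.64 (7.15, 6.31 to 8.12) Lyz2 at 630 against 4033 CPM (-2.68, -2.87 to -2.50) and Cebpb at a ratio of -0.83 (-1.05 to -0.62). Ly6c2 was at -0.63 (-0.86 to -0.41) in KO monocyte-like cells, and Lyz2 at 0.68 (-0.03 to 1.34) in KO cDC2-like cells. So Pclaf was high in the members of each lineage compared. Ly6c2 was lower in each, but it is 1 of the 5 monocyte markers that assigned the lineages. Its levels were low in dendritic members, at 16.6 CPM in WT and 29.6 in KO cDC1-like and 10.7 in KO cDC2-like members. Members were also deeper, with cDC1-like medians of 24710.5 against 9707 UMIs in WT and 21675 against 13012 in KO. The part of depth in this was not tested. Lyz2 and Cebpb were low in some lineages and not in others.

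Some lysosome and chemokine genes were at least 2-fold lower in members. Of 10 lysosome and phagocytosis genes, 7 were at least 2-fold lower in WT and 4 in KO. Of 16 chemokine genes, 11 and 5 were, with Cxcl2, which recruits neutrophils, at 1646 CPM in WT members against 5158 CPM and at 2517 against 4983 CPM in KO, just under 2-fold. None of the 10 MHC class II genes passed 2-fold in either direction in either library. The level of Cd74, the invariant chain, was at 19009 CPM in WT members and 18657 in noncycling cells, and at 19147 and 19583 CPM in KO. Cd74, H2-Aa and H2-Ab1 were part of the rule, and the medians over the list were 0.17 and 0.16. Within cDC1-like cells Cd74 was slightly lower in members, at -0.21 (-0.25 to -0.18) in WT and -0.31 (-0.33 to -0.28) in KO, and within KO cDC2-like cells at -0.24 (-0.27 to -0.22). The MHC class I list had medians of -0.13 and -0.28, with B2m, its shared light chain, at -0.41 and -0.40.

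**Figure D4:**
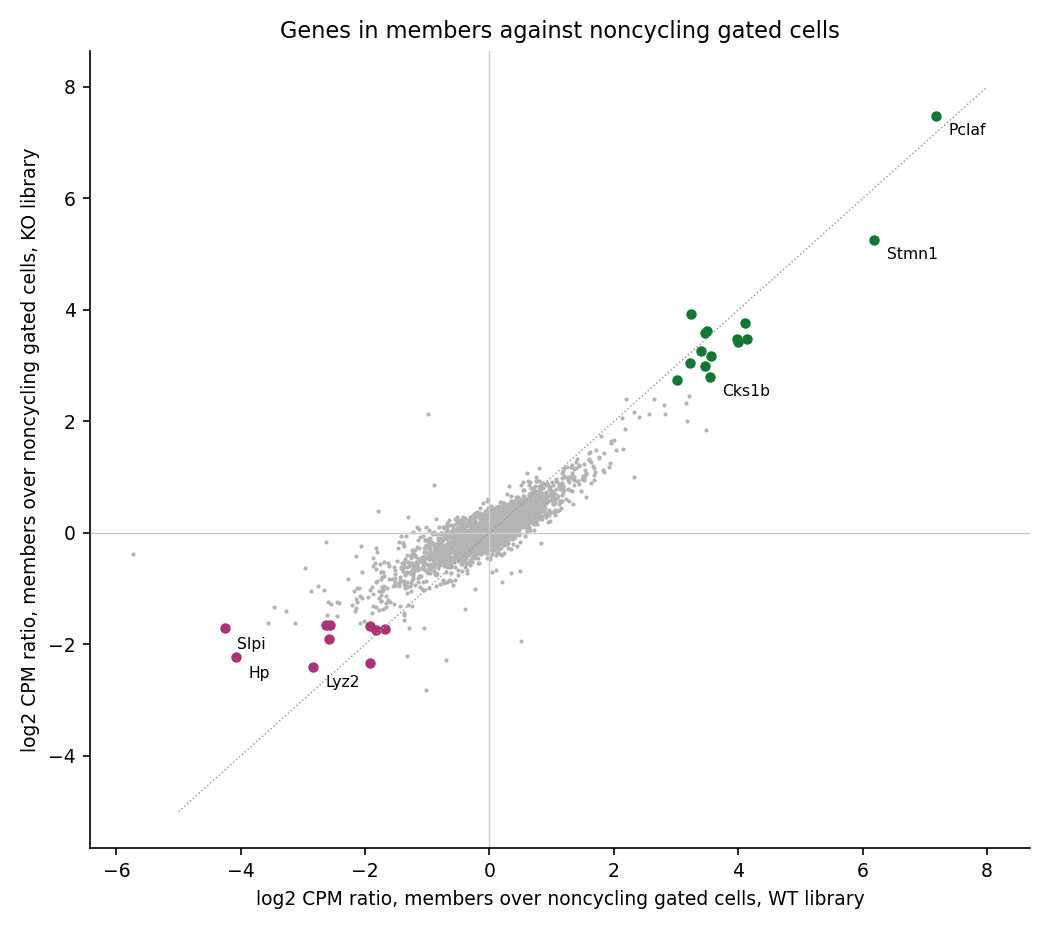
Each point is a gene, with the log2 CPM ratio of members over noncycling gated cells in WT on the x axis and in KO on the y axis, and a dotted line where the libraries are equal. Green points are the 15 highest and purple points the 10 lowest genes, among them Pclaf at 7.17 and 7.48 and Lyz2 at -2.84 and -2.40, and the 3 rule genes are left out.

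Of the 20 genes of cell cycle entry and its brakes, 7 had a mean of at least 50 CPM, and of these 1 in WT and 0 in KO were at least 2-fold higher in members. Genes under that level differed more. Ccne1, a cyclin that acts at the entry into S phase, stood at 23.2 CPM in WT members and 1.93 in noncycling cells (log2 ratio 3.58, 2.63 to 4.57), and in KO the levels were 17.6 and 1.96 CPM (3.16, 2.57 to 3.77). E2f1, a transcription factor of that transition, had ratios of 2.82 and 2.22. Among the more abundant genes, Ccnd1, a D-type cyclin that answers growth factors, stood at 262 CPM in WT members and 164 in noncycling cells, and at 257 and 192 CPM in KO. Ccnd3 stood at 149 and 135 CPM in WT and at 171 and 138 CPM in KO. Cdk4, the kinase that these cyclins activate, was 2-fold higher or more only in WT, at 145 CPM against 50.6 (log2 ratio 1.52), with 94.9 against 47.5 CPM in KO (0.997). Cdkn1a, the inhibitor p21, was lower in members of both libraries, at 327 against 595 CPM in WT and 552 against 712 CPM in KO. Within lineages its ratio was 0.17 (-0.44 to 0.78) in WT cDC1-like cells, -0.37 (-0.73 to -0.02) in KO cDC1-like cells, 0.15 (0.01 to 0.29) in KO cDC2-like and -0.33 (-0.51 to -0.17) in KO monocyte-like cells. Ccnd1 was found in 67.6% of WT and 68.8% of KO members but in 18.3% and 10.6% of cycling cells with T cell markers, whereas Ccnd2 was in 49.3% and 61.2% of members and in 58.6% and 75.6% of those cells.

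The targeted gene could not be checked in members. Kcnj2, which encodes the potassium channel Kir2.1, had 1 UMI in WT and 2 UMIs in KO members. Noncycling gated cells held 77 UMIs in WT (8.75 CPM, 6.91 to 10.9) and 62 in KO (2.70 CPM, 2.07 to 3.46), and reads at the 3′ end need not lie in the deleted part. In members Lyz2 had 731 CPM in WT and 304 in KO (log2 KO over WT -1.26, -1.40 to -1.12), and it was found in 59.2% and 30.6% of cells. In cDC1-like members it was in 18 of 24 WT and 12 of 53 KO cells. Lyz2 was also in 31.2% of 394 WT and 19.5% (12.9 to 27.6) of 123 KO cycling cells with T cell markers. The KO cDC1-like share of 22.6% lay within that interval. The cells with T cell markers may hold doublets as well as free RNA, so they are not a clean background. The share in them was higher in WT, and its part in the difference between the libraries was not tested. Lyz1, a neighbouring and near-identical lysozyme gene, had 5 UMIs in WT and 271 in KO members (4.16, 2.92 to 5.80). Whether reads were split between the 2 genes was not tested.

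KO and WT members were compared gene by gene as 2 libraries. Of 2792 genes with a mean of at least 50 CPM, 73 (2.61%) were at least 2-fold higher in KO and 13 (0.466%) at least 2-fold lower, with a median log2 ratio of -0.02. In noncycling gated cells the shares were 0.189% and 0.340% of 2646 genes, from far more cells. In WT, 3 cells held over 85% of the UMIs of the 3 genes lowest in KO.

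Interferon-induced genes were among the highest in KO members. Rsad2, the antiviral enzyme viperin, stood at 11.6 CPM in WT (5.99 to 20.2) and 144 CPM in KO (131 to 158), a log2 ratio of 3.64. It was found in 4 of 71 WT and 34 of 170 KO members, and 3 cells held 91.7% of its WT and 52.8% of its KO UMIs. Cxcl9 and Cxcl10, chemokines that attract activated T cells, rested at 68.6 and 97.5 CPM in WT and 382 and 540 CPM in KO. Of their KO UMIs, 37.5% and 45.3% lay in 3 cells, and without the 3 richest cells of each library the ratios were 3.12 and 4.32. Of 13 interferon-gamma genes tested, 4 were at least 2-fold higher in KO and 0 at least 2-fold lower, with a median of 0.72. The intervals of 9 lay above 0 and those of 3 below 0, so the list did not move as 1. Of 9 type I interferon genes, 2 were at least 2-fold higher and 0 at least 2-fold lower, with a median of 0.53. In noncycling gated cells of the same libraries the medians were 0.14 and 0.51. In cDC1-like members 1.49% of 2685 genes were at least 2-fold higher in KO and 0.559% lower. There Iigp1, an interferon-inducible GTPase, was at 55.4 CPM in WT against 189 in KO (1.77, 1.22 to 2.38). Of 10 interferon-gamma genes in these cells, 3 were at least 2-fold higher, with the intervals of 6 above 0 and of 2 below 0.

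Immediate early genes, which answer signals and tissue dissociation within minutes, were higher in KO members. Of 12 tested, 5 were at least 2-fold higher and 0 lower, with a median of 0.90 against 0.35 in noncycling gated cells. Egr1 stood at 103 CPM in WT against 412 in KO (1.99, 1.71 to 2.29). Dusp1 stood at 344 and 700 CPM, and Junb at 439 and 887 CPM. In cDC1-like members the median over the list was 0.58, with Egr1 at 0.91 and Fos at -0.23.

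Genes of lineage and growth control gave further differences. Mgl2, a lectin of cDC2 and alternatively activated macrophages, stood at 28.0 CPM in WT against 203 in KO (2.86, 2.32 to 3.45) and was in 15.5% and 28.8% of members. Csf2rb, the shared signalling chain of the GM-CSF, IL-3 and IL-5 receptors, stood at 120 and 287 CPM (1.26, 0.99 to 1.54) and in cDC1-like members at 75.7 and 126 CPM (0.73, 0.22 to 1.27). Ccnd2, the D-type cyclin, stood at 110 and 252 CPM (1.20, 0.91 to 1.49), and Flt3 at 100 and 102 CPM (0.03, -0.30 to 0.36). Neither the MHC class II list (median 0.02) nor the MHC class I list (0.13) had a gene past 2-fold.

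Mitotic genes were lower in KO members. Of 14 genes of the G2 and M list, 3 were at least 2-fold lower and 0 higher, with a median of -0.75, and the intervals of 12 lay below 0. Ube2c, which loads ubiquitin for the anaphase-promoting complex, stood at 110 CPM in WT against 25.2 in KO (-2.12, -2.56 to -1.70), but 3 cells held 71.9% of its WT UMIs, and without the 3 richest cells of each library the ratio was -0.76. Cks1b, a subunit of cyclin-dependent kinases, stood at 184 and 88.5 CPM, and Tacc3, a spindle protein, at 86.9 and 37.0 CPM. The S phase list had 0 of 19 genes past 2-fold and a median of -0.23. KO members also lay more often at low values on both lists, and the part of this in the difference was not tested. In cDC1-like members the G2 and M median was -0.69 and the S phase median 0.19, with Uhrf1, a guardian of DNA methylation in replication, at 49.8 and 110 CPM.

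The 3 lowest genes in KO rested on few WT cells. Spp1, osteopontin, stood at 298 CPM in WT against 39.6 in KO (-2.91, -3.23 to -2.61), and without the 3 richest cells of each library the ratio was -0.57. For Ccl5, a chemokine gene, the ratio was -2.53 with and -0.30 without them, and for Ccl7, a monocyte attractant, -2.30 with and 0.44 without. In WT, 85.8%, 91.1% and 96.1% of their UMIs lay in 3 cells.

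**Figure D5:**
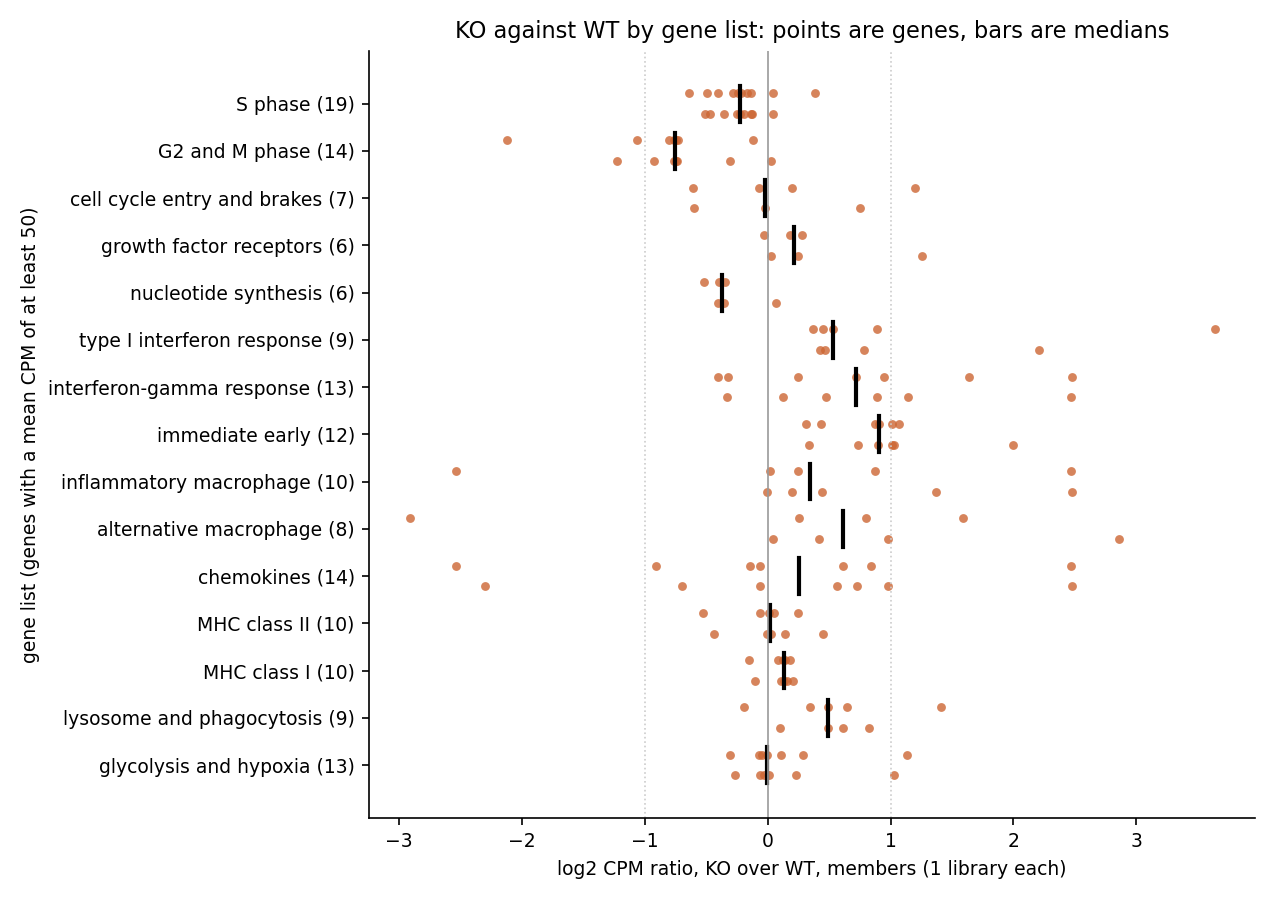
Each point is a gene of the list named on the y axis, with the number of genes in brackets, at its log2 CPM ratio of KO over WT in members (x axis), with black bars for list medians and dotted lines at 2-fold. The G2 and M list has its median at -0.75 and the immediate early list at 0.90, and the points rest on 1 library per genotype.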

How the data were processed

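CD45+ cells of B16F10 tumours were profiled with the 10x Chromium 3′ kit (version 3), per the labels' protocols, in 1 library per genotype. The authors deposited raw UMI counts per gene and barcode. Tools listed per the submitters' processing notes are Seurat 4.0.1, bcl2fastq 2.20 and Cell Ranger 3.1.0, with the build GRCm38. Per the file headers the matrices come from Cell Ranger 4.0.0, so the version that made the counts is uncertain. No barcode had under 500 UMIs.

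Counts of a group of cells were summed within each library, divided by its total and given as CPM with exact Poisson intervals. Log2 ratios have exact conditional binomial intervals, and shares have Clopper-Pearson intervals. Genes with a mean of at least 50 CPM were compared and counted at 2-fold or more. Where either group was at 0, any count under 3 UMIs in either group was set to a floor of 3 for the ratio. The ratio and its intervals were run on simulated Poisson counts, the model that the intervals assume. This checked the calculation only, since UMIs held by a few cells were not simulated. Thinning drew UMIs at random without replacement, leaving out shallower cells (8 WT and 5 KO members below 3000 UMIs). Doublets were scored with Scrublet in scanpy 1.11.5 and removed only in an alternative. Python 3.11.15, numpy 2.4.6 and scipy 1.17.1 were used. Promoters came from RefSeq (GRCm38.p6).

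The members and gene lists were chosen with earlier results of these data known. Genes were named by a rule: all rule genes, markers and list members described, the 15 highest and 10 lowest in members against noncycling cells, and the 10 highest and 10 lowest in KO against WT. Sex-linked, haemoglobin, antigen receptor, mitochondrial and ribosomal genes stayed out of the rankings. The effect of other settings is given in the closing section. The values of 1 gene that was counted are not reported here.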

Additional observations from a re-analysis of the deposited data

How the results depend on the processing

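No paired analysis was possible because each genotype has 1 library, and for the same reason no replicate could be left out. Under the other settings, 118 values of the main results stayed within their limits (the counting interval of a share, 1.5 times a count) and 36 moved past them. With at least 5 cycling UMIs there were 44 WT and 105 KO members, 0.492% and 1.85% of kept cells and 3.26% and 3.99% of gated cells, 13.3% of KO cDC1-like cells, and 25 genes 2-fold lower in KO. With 0 melanoma UMIs KO members were 2.25% of kept cells and 21 genes were lower, as many as with the 6% highest Scrublet scores removed. Lineage by summed UMIs made 26.5% of KO members monocyte-like, against 4.23% in WT and 2.94% in KO without Plac8 and Ms4a4c. A minimum of 100 CPM gave 38 genes higher and 6 lower, no minimum except 20 UMIs 794 and 177, and per-cell fractions 33 lower. Thinning to 5000 UMIs with at least 2 cycling UMIs gave 4.20% of WT and 4.67% of KO gated cells. At least 5 UMIs of the S phase list gave 16.02% and 24.7% of gated cells. Between 8000 and 20000 UMIs, 91 genes were higher and 85 lower in WT members than in noncycling cells, and 20 and 21 in KO.

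Chosen after seeing the data, members taken after thinning to 5000 UMIs were 41 in WT and 103 in KO, with 24 genes lower in KO and an S phase median of 0.077. Members with high S and G2/M lists were 93 in KO, 1.64% of kept and 3.54% of gated cells, 47.3% of them cDC1-like and 7.53% monocyte-like, with 39 genes higher, an MHC class II median of -0.030 and Ccl7 at 0.35. Ccl7 was 0.44 without its 3 richest cells. The MHC class II median was -0.0016 with Lyz2 left out of the myeloid sum. Beyond what each alternative's construction shows, the cause was not tested. Depth limits single genes: in WT members 3 UMIs correspond to 2.90 CPM.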
